A study of Mus musculus with 6 samples.

Results

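The genes of fatty acid oxidation and ketone body formation were followed in mouse liver as a set of 36 named genes, each matched by its exact symbol to the deposited count table. All 36 were among the 35976 genes of the table, and all 36 passed the filter on low counts with 14954 genes tested in all. By the known place of their products, 20 are mitochondrial, 8 peroxisomal and 2 (Crat and Eci2) active in both organelles. Another 3 are regulators of transcription (Ppara, Ppargc1a and Creb3l3), and 3 act outside these steps (Vnn1, Slc27a1 and Aldh3a2). Polyadenylated liver RNA was sequenced from male mice of genotype IRE1fl (3 libraries) and genotype IRE1PKO (3 libraries). The mice of both groups carry the treatment label HFD, read here as high-fat diet, and their livers were taken 4 hours into feeding that followed 16 hours without food. Ern1 encodes IRE1, which senses misfolded protein in the endoplasmic reticulum. What PKO stands for and which promoter drives a deletion are not in the labels, and the series title speaks of communication between pituitary and liver. The age of the mice is not given, nor whether each library is a separate animal, so a p-value here reflects how far these libraries differ, and that spread could be technical.

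Fatty acids enter mitochondria as carnitine esters and are then shortened in repeated cycles of dehydrogenation, hydration, a second dehydrogenation and thiolysis. Electrons pass to the respiratory chain through the electron transfer flavoproteins, and in fasted liver much of the acetyl-CoA leaves as ketone bodies. Peroxisomes take the very long and branched chains, shorten them and pass them on. In liver many genes of both routes are targets of the nuclear receptor PPARalpha, which fatty acids activate.

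Total counts ran from 35776219 to 39277435 per library, and the 13 genes encoded by mitochondrial DNA took 3.84% to 4.98% of them. Ern1 had 49.3 to 61.2 CPM (the usual depth-scaled unit, each count divided by the adjusted total of its library) in IRE1fl and 36.6 to 45.7 CPM in IRE1PKO, which checks no label if the deletion lies outside the liver. It fell by 0.44 (SE 0.11, adjusted p = 0.0357), a call lost with library totals as the only scaling, with limma-voom and without any library other than IRE1fl 2 (adjusted p up to 0.137). The tissue label was set against marker genes. The summed CPM of 7 hepatocyte markers was 83619.8 to 99346 in IRE1fl and 78830.6 to 96841 in IRE1PKO, most of it from Alb, and 2 of the 7 fell, Serpina1c and Cps1, each with a log2 fold change of -1.16. The sum of 5 muscle markers was at most 0.189, with Acta1 at 0 in every library. For 5 adipocyte markers the sum was 1.21 to 4.32 CPM in IRE1fl and 7.93 to 15.7 CPM in IRE1PKO. Most of it came from Cfd, with means of 2.39 CPM in IRE1fl and 10.6 CPM in IRE1PKO. Cfd was the only 1 of the 5 tested and did not pass (log2 fold change 2.15, adjusted p = 0.0787). Lep was at 0 in every library, and Adipoq, Plin1 and Retn had means of at most 0.141 CPM in either group. Of 5 periportal hepatocyte markers 4 fell (sum 6391 to 6970.0 CPM in IRE1fl, 3233 to 3963 CPM in IRE1PKO), while the pericentral sums overlapped (7877 to 10187 and 6986 to 9917 CPM) and 1 of 5 fell. The calls of the periportal Hal and Pck1 were each lost without 3 of the single libraries (adjusted p up to 0.117). That of the pericentral Cyp1a2 was lost without 4 of them (adjusted p up to 0.156). Of 5 stellate cell markers 4 rose (sum 55.1 to 75.9 CPM in IRE1fl, 160.4 to 176 CPM in IRE1PKO). Of 5 endothelial markers 2 rose, Pecam1 and Stab2 (sum 140.1 to 157 CPM in IRE1fl, 164 to 218 CPM in IRE1PKO), calls lost without most single libraries. Of 5 cholangiocyte markers Spp1 rose and Sox9 fell, and the sums of 5 macrophage markers overlapped (236 to 307 and 281 to 382 CPM). In bulk tissue, fewer cells of a type and less RNA per cell cannot be told apart, and the part of these shifts in the results on the oxidation genes was not tested.

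In IRE1PKO livers 7 of the 36 genes rose and 1 fell past an adjusted p of 0.05 (edgeR's quasi-likelihood test, Benjamini-Hochberg adjustment over all tested genes). The background was 5.68% of all tested genes higher and 3.86% lower (849 and 577 genes, or 1148 and 415 with library totals as the only scaling). Those that rose were the peroxisomal genes Pex11a and Abcd2, the mitochondrial genes Acadl, Decr1, Eci1 and Bdh1, and the pantetheinase gene Vnn1, and the gene that fell was Acadsb. These genes are abundant in liver, and abundant genes gave other shares. Among the 1508 tested genes with a mean of at least 100 CPM, 8.02% were called higher and 11.5% lower, and of the 33 members at that level 6 rose and 1 fell. The median log2 fold change (IRE1PKO over IRE1fl) was 0.26 over the 36 genes and -0.001 over all tested genes. It was 0.19 over the 20 mitochondrial genes, of which 4 rose, 1 fell and 15 did not pass. Over the 8 peroxisomal genes it was 0.36, with 2 that rose and none that fell. At an unadjusted p under 0.05 in the same test, 5 of the 8 were higher and none lower. That threshold is loose here. Between 3696 and 3745 of the 14954 tested genes passed it, both directions together. DESeq2 called 3 of the 8 higher and none lower (1126 and 841 among all genes), and limma-voom 2 and none (801 and 578). The 3 IRE1PKO libraries lay above all 3 IRE1fl libraries for 18 of the 36 genes (background 16.0% of tested genes) and below them for 4 (background 15.0%). The count of 7 members was 2 without IRE1PKO 1, 3 without IRE1PKO 2 or IRE1PKO 3, and 11 without IRE1fl 1. A fit with fewer libraries changes the calls of all genes. The range of the counts over all tested genes in such fits is given in the last section. The mitochondrial count of 4 was between 0 and 2 without IRE1fl 2, IRE1fl 3 or any 1 IRE1PKO library, and the peroxisomal count of 2 was 5 without IRE1fl 1.

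**Figure D1:**
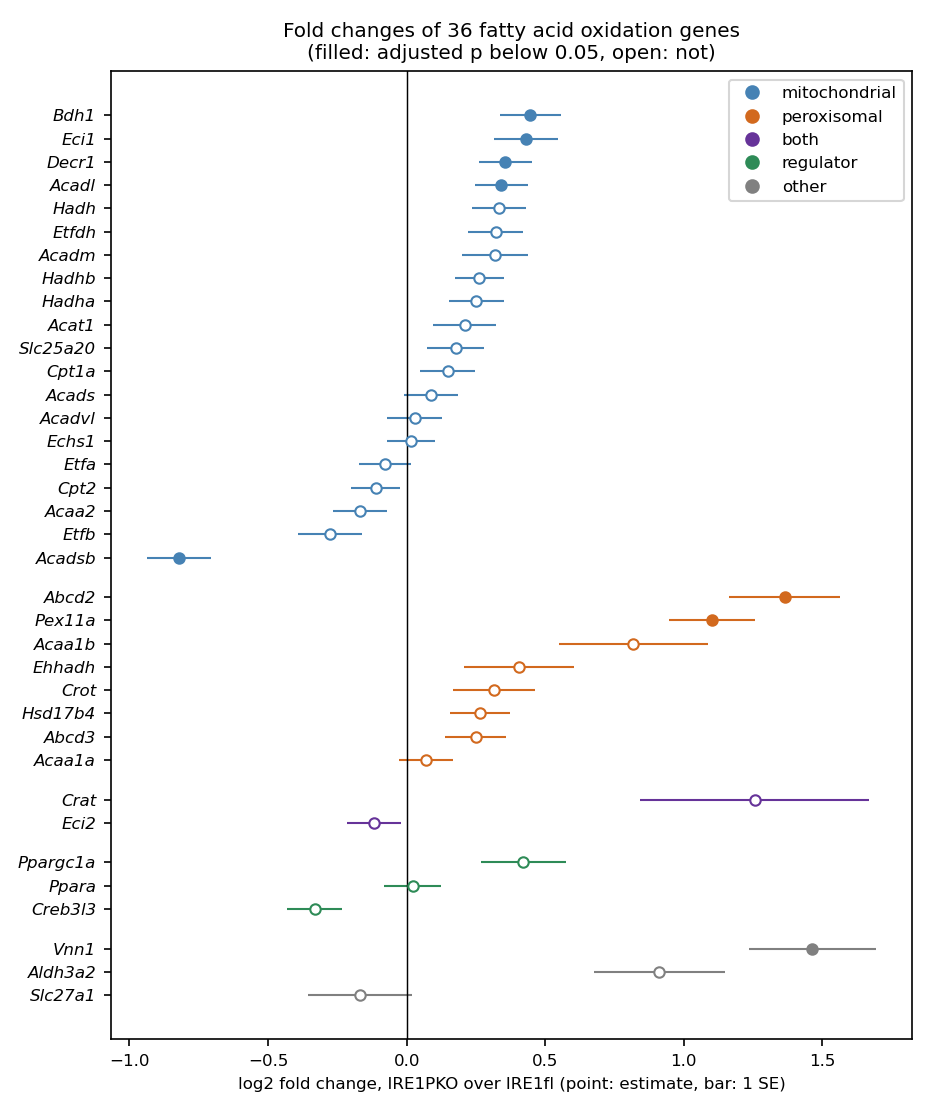
Log2 fold change of each of the 36 genes, IRE1PKO over IRE1fl (x axis), with bars of 1 SE, by compartment; filled points passed an adjusted p of 0.05. The largest estimates are those of Vnn1 at 1.46 and Abcd2 at 1.36, most mitochondrial genes lie between 0 and 0.45, and Acadsb stands alone at -0.82.

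The levels of these genes lay closer together among the IRE1PKO libraries than among the IRE1fl libraries. The median over the 36 genes of the log2 CPM, taken relative to each gene's mean over the 6 libraries, was 0.13, 0.13 and 0.14 in IRE1PKO libraries 1, 2 and 3. In IRE1fl it was -0.03, -0.08 and -0.26. IRE1fl 3 held the lowest value of its group for 27 of the 36 genes, whereas over all tested genes that library was the lowest of its group for 33.8%. The highest-to-lowest ratio within a group was wider in IRE1fl for 29 of the 36 genes, against 49.2% of all tested genes. IRE1fl 3 also had the lowest scaling factor (0.945, others 0.986 to 1.05), which makes its CPM higher than its library total alone would. With library totals as the only scaling, the median over the 36 genes was 0.33. Of the 36, 9 then rose and 1 fell, against 1148 and 415 among all tested genes. Why the values of IRE1fl 3 were low was not tested. Without IRE1fl 3 the median over the 36 genes was 0.21, and 5 genes rose. Without IRE1fl 1 it was 0.31 and 11 rose, with Acadm, Acaa1b, Ehhadh, Crot, Etfdh and Aldh3a2 added and Acadl and Decr1 lost.

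**Figure D2:**
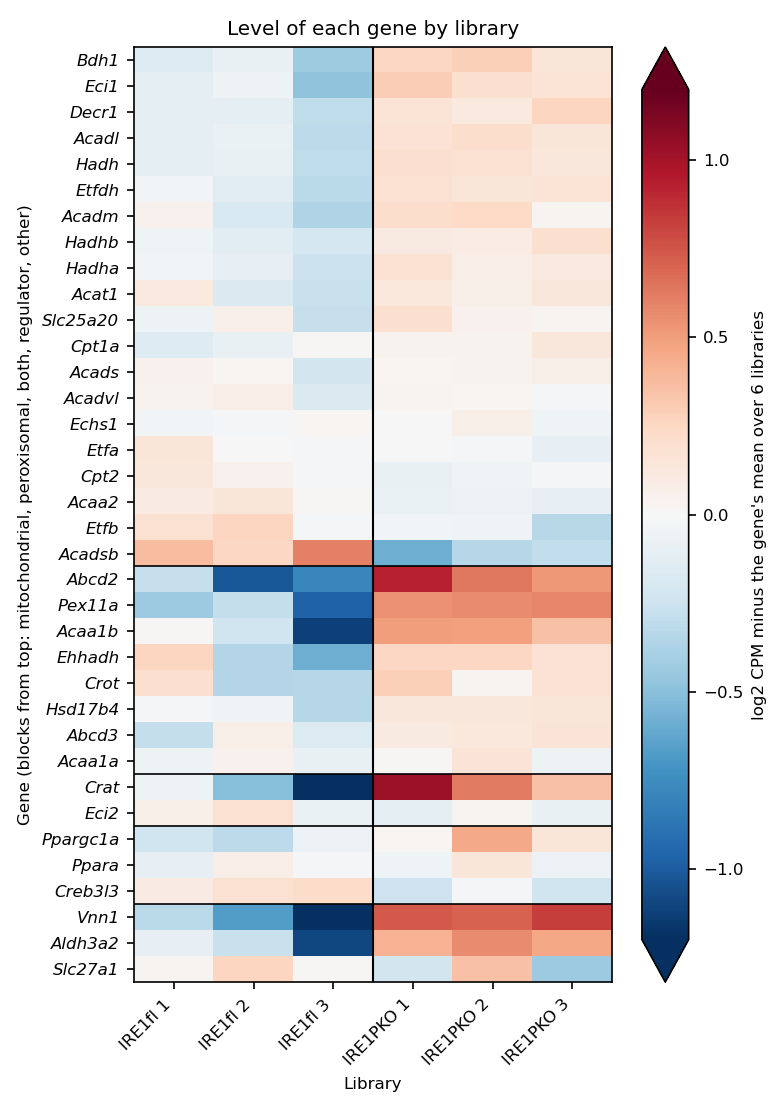
Log2 CPM of each gene minus its mean over the 6 libraries (colour), libraries in columns and genes in rows, blocked by compartment. IRE1fl 3 is the bluest column, with the lowest value of its group for 27 of 36 genes, and the 3 IRE1PKO columns resemble each other.

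At the gate of the mitochondrial route, the carnitine shuttle genes did not pass. Cpt1a, the malonyl-CoA-sensitive enzyme that commits fatty acids to oxidation, had 659, 693 and 743 CPM in IRE1fl and 757, 757 and 808 CPM in IRE1PKO. The IRE1PKO values were the higher ones without overlap, but the log2 fold change was 0.15 (SE 0.10, adjusted p = 0.384). Cpt2, which releases the acyl group inside, had a log2 fold change of -0.11 (SE 0.09, adjusted p = 0.463) and Slc25a20, the carnitine-acylcarnitine translocase, of 0.18 (SE 0.10, adjusted p = 0.315), both with overlapping groups.

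The acyl-CoA dehydrogenases, which open each cycle for chains of different length, differed among themselves. Acadl, for long chains (chromosome 1, 66830839 to 66863309 in GRCm38), had 229.7, 236 and 200.5 CPM in IRE1fl and 281, 288 and 275 CPM in IRE1PKO. It rose by 0.34 (SE 0.10, adjusted p = 0.0458). Every IRE1PKO value was above every IRE1fl value, yet the call was lost with a dispersion trend that was not robust and without any single library (adjusted p up to 0.154). Acadm, for medium chains, had 487, 414 and 366 CPM in IRE1fl and 543, 555 and 482 CPM in IRE1PKO, a log2 fold change of 0.32 (SE 0.12, adjusted p = 0.123) with the lowest IRE1PKO value just under the highest IRE1fl value. Acadvl, for very long chains, and Acads, for short chains, had log2 fold changes of 0.03 (SE 0.10, adjusted p = 0.892) and 0.09 (SE 0.10, adjusted p = 0.620), both with overlapping groups.

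Acadsb was the only 1 of the 36 genes to fall by this test. It encodes the short and branched chain dehydrogenase, which also serves isoleucine breakdown (chromosome 7, 131410601 to 131446211). It had 166, 152 and 195 CPM in IRE1fl and 85.5, 101 and 104 CPM in IRE1PKO, so that the highest IRE1PKO library was well under the lowest IRE1fl library. The mean went from 171 ± 22.1 to 96.9 ± 9.999 CPM (SD, n = 3 each), and it fell by 0.82 (SE 0.11, adjusted p = 0.00164) on the log2 scale. With each library left out in turn it stayed between -0.90 and -0.72 and past the threshold (adjusted p up to 0.0115).

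In the later steps of the cycle, Hadha and Hadhb encode the 2 subunits of the mitochondrial trifunctional protein and lie head to head on chromosome 5. Only the short stretch between their outermost annotated starts (GENCODE M21, GRCm38) separates them, so it is shown here as the sequence that the pair shares, on the plus strand, with GGGCGG (GC box) and CCAAT on either strand in capitals.
Hadha and Hadhb, chr5:30155163-30155247: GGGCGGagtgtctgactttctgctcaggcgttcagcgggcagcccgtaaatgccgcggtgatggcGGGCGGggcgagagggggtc
These 85 bases hold 2 GC boxes and no CCAAT. Hadha had 431, 411 and 369 CPM in IRE1fl and 500.1, 464 and 479 CPM in IRE1PKO. Hadhb had 198, 188 and 178 CPM in IRE1fl and 222, 219 and 236 CPM in IRE1PKO. For both subunits the IRE1PKO libraries lay above the IRE1fl libraries, and the log2 fold changes were close in size, 0.25 (SE 0.10, adjusted p = 0.135) for Hadha and 0.26 (SE 0.09, adjusted p = 0.0902) for Hadhb, neither past the threshold. Hadh, the hydroxyacyl-CoA dehydrogenase of shorter chains, had 451, 457 and 396 CPM in IRE1fl and 556, 552 and 535 CPM in IRE1PKO. Its groups did not overlap either, and its log2 fold change of 0.33 (SE 0.10, adjusted p = 0.0543) missed the threshold narrowly; it passed with DESeq2, limma-voom and library totals as the only scaling. Echs1, the short-chain enoyl-CoA hydratase, had a log2 fold change of 0.02 (SE 0.09, adjusted p = 0.935). Acaa2, the mitochondrial thiolase that ends the cycle, had 1063 to 1163 CPM in IRE1fl and 983 to 1008 CPM in IRE1PKO, a log2 fold change of -0.17 (SE 0.10, adjusted p = 0.308).

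Of the auxiliary enzymes for unsaturated fatty acids, the mitochondrial Eci1 and Decr1 rose. Eci2, active in both organelles, did not pass (log2 fold change -0.12, adjusted p = 0.502). Eci1, an isomerase that shifts the double bond (chromosome 17, 24426683 to 24439316), had 162, 169 and 126 CPM in IRE1fl and 217, 202 and 198 CPM in IRE1PKO. It rose by 0.43 (SE 0.11, adjusted p = 0.0388). Decr1, the dienoyl-CoA reductase (chromosome 4, 15917240 to 15945377), had 221, 220.3 and 193 CPM in IRE1fl and 267, 259.8 and 285 CPM in IRE1PKO. It rose by 0.36 (SE 0.10, adjusted p = 0.0392). For each gene all IRE1PKO libraries were above all IRE1fl libraries. The Decr1 call was lost without any single library (adjusted p up to 0.137), and that of Eci1 with a dispersion trend that was not robust and without IRE1fl 3 or any 1 IRE1PKO library (up to 0.135).

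Of the electron carriers, Etfdh, the oxidoreductase that hands electrons to ubiquinone, had 266, 246 and 218 CPM in IRE1fl and 308, 300.4 and 304 CPM in IRE1PKO. The groups did not overlap, and the log2 fold change was 0.32 (SE 0.10, adjusted p = 0.0645). The flavoprotein subunits Etfa and Etfb had log2 fold changes of -0.08 (SE 0.09, adjusted p = 0.651) and -0.28 (SE 0.12, adjusted p = 0.161). Etfb was the lower in every IRE1PKO library, at 231 to 285 CPM against 286 to 350 CPM, although the closest libraries were nearly level.

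Of the ketone body genes, Bdh1, which interconverts acetoacetate and 3-hydroxybutyrate (chromosome 16, 31422297 to 31458901), had 344, 364 and 287 CPM in IRE1fl and 459, 469.7 and 427 CPM in IRE1PKO. Every IRE1PKO library was above every IRE1fl library. It rose by 0.45 (SE 0.11, adjusted p = 0.0268), and it missed the threshold when IRE1fl 3, IRE1PKO 1 or IRE1PKO 2 was left out (adjusted p up to 0.098). Acat1, the acetoacetyl-CoA thiolase, had a log2 fold change of 0.21 (SE 0.11, adjusted p = 0.288) with overlapping groups.

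The 8 peroxisomal genes all had estimates above 0, from 0.07 to 1.36. Abcd2 (chromosome 15, 91145871 to 91192007), a transporter of very long chain acyl-CoA, had 36.9, 22.2 and 26.1 CPM in IRE1fl and 85.5, 69.4 and 64.2 CPM in IRE1PKO. The lowest IRE1PKO library was far above the highest IRE1fl library. It rose by 1.36 (SE 0.20, adjusted p = 0.00676) and stayed called without each library in turn (adjusted p up to 0.0353). Abcd3, the related transporter of long and branched chains, had 516, 660.4 and 562 CPM in IRE1fl and 677, 689 and 700.3 CPM in IRE1PKO, and its log2 fold change was 0.25 (SE 0.11, adjusted p = 0.185). Per kilobase of transcript, the Abcd3 level in IRE1fl was 166 CPM and that of Abcd2 5.13 CPM, so the transporter that rose was the scarcer one.

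Pex11a (chromosome 7, 79735957 to 79743131), a membrane protein of peroxisome elongation and division, had 125, 139.6 and 86.4 CPM in IRE1fl and 248, 252 and 255 CPM in IRE1PKO. The 3 IRE1PKO libraries were nearly equal and all above the IRE1fl range. Its mean went from 117 ± 27.5 to 251 ± 3.75 CPM (SD, n = 3 each), and it rose by 1.10 (SE 0.16, adjusted p = 0.00277), a call kept without each library in turn (adjusted p up to 0.0189).

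Acaa1a and Acaa1b encode close copies of the peroxisomal thiolase on chromosome 9, and reads that both copies could have produced may have been split between them in a way the sources do not state. Acaa1a had 308, 334 and 302 CPM in IRE1fl and 324, 359 and 308 CPM in IRE1PKO, level across the groups, with a log2 fold change of 0.07 (SE 0.10, adjusted p = 0.709). Acaa1b had 1832, 1537 and 836 CPM in IRE1fl and 2559, 2546 and 2307 CPM in IRE1PKO. Its IRE1fl libraries spread widely, with IRE1fl 3 lowest, while the IRE1PKO libraries were close together and above them all. The log2 fold change of Acaa1b was 0.82 (SE 0.27, adjusted p = 0.113), and it passed without IRE1fl 1, without IRE1fl 3 (adjusted p down to 0.0303) and with DESeq2. Per kilobase, the mean level of Acaa1b was 829.8 CPM in IRE1fl and 1463 CPM in IRE1PKO, and that of Acaa1a 179 and 188 CPM.

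Ehhadh, the bifunctional enzyme of straight chains, had 392, 256 and 218 CPM in IRE1fl and 388, 389.6 and 369.6 CPM in IRE1PKO. IRE1fl 1 was level with the IRE1PKO libraries and the other IRE1fl libraries were well below, so the log2 fold change of 0.41 (SE 0.20, adjusted p = 0.251) did not pass; without IRE1fl 1 it was 0.69 and did (adjusted p = 0.00424). Crot, which exports shortened chains as carnitine esters, showed the same layout, with 503, 346 and 347 CPM in IRE1fl and 538, 451 and 497 CPM in IRE1PKO. Its log2 fold change was 0.31 (SE 0.15, adjusted p = 0.221), and 0.51 without IRE1fl 1 (adjusted p = 0.0194). Hsd17b4, the second bifunctional enzyme, which also handles branched chains, had 619, 606 and 492 CPM in IRE1fl and 686, 687 and 689.7 CPM in IRE1PKO, without overlap and with a log2 fold change of 0.26 (SE 0.11, adjusted p = 0.160).

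**Figure D3:**
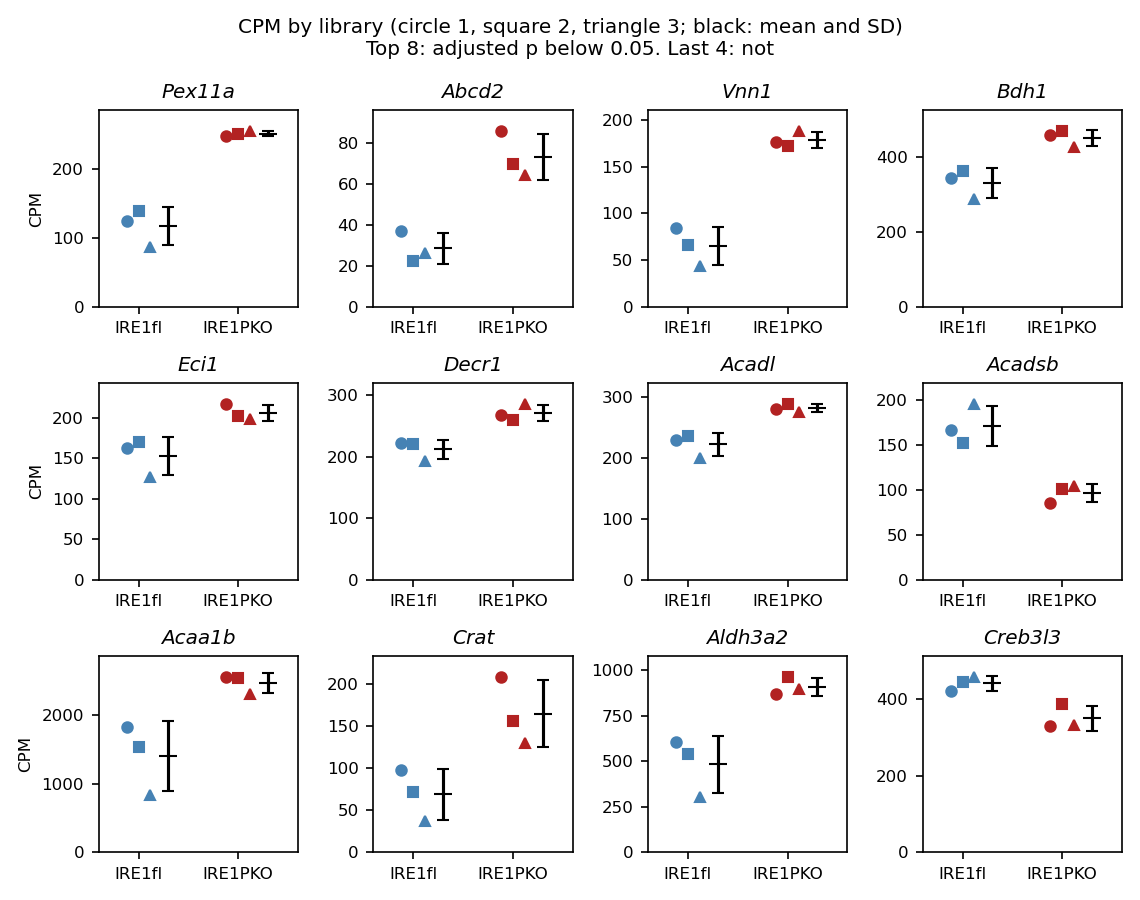
CPM in each library (y axis from 0) for 12 of the genes, with the mean and SD in black. The upper 8 passed an adjusted p of 0.05, with Acadsb lower in IRE1PKO and the other 7 higher; Acaa1b, Crat and Aldh3a2 show a low IRE1fl 3, and for Creb3l3 the IRE1PKO libraries lie below the IRE1fl libraries.

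Of the enzymes active in both organelles, Crat, the carnitine acetyltransferase, had 98.0, 71.8 and 37.6 CPM in IRE1fl and 209, 157 and 129.9 CPM in IRE1PKO. Every IRE1PKO library was above every IRE1fl library, but values within each group differed widely, and the log2 fold change of 1.26 (SE 0.41, adjusted p = 0.152) did not pass. It passed with DESeq2, with limma-voom and with a dispersion trend that was not robust. Eci2, an isomerase like Eci1, had a log2 fold change of -0.12 (SE 0.10, adjusted p = 0.502) with overlapping groups.

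Of the genes outside these steps, Vnn1 (chromosome 10, 23894688 to 23905344), a pantetheinase that recycles the vitamin part of coenzyme A and a known PPARalpha target, had 84.7, 66.4 and 43.4 CPM in IRE1fl and 176, 172 and 188 CPM in IRE1PKO. The IRE1PKO libraries were all at least 2-fold above the highest IRE1fl library. It rose by 1.46 (SE 0.23, adjusted p = 0.0116), a call lost narrowly without IRE1PKO 1 or IRE1PKO 3 (adjusted p up to 0.0589). Aldh3a2, which oxidises fatty aldehydes, had 605, 539 and 304 CPM in IRE1fl and 867, 962 and 894 CPM in IRE1PKO. The groups did not overlap, IRE1fl 3 was again the lowest, and the log2 fold change of 0.91 (SE 0.24, adjusted p = 0.0556) did not pass; without IRE1fl 1 or IRE1fl 3 it did (adjusted p down to 0.00973). Slc27a1, a fatty acid transport protein, was scarce, with 14.4 to 16.9 CPM in IRE1fl and 10.5 to 18.1 CPM in IRE1PKO, a log2 fold change of -0.17 (SE 0.19, adjusted p = 0.628).

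The regulators did not pass. Ppara, which encodes PPARalpha, had 508, 573 and 539.6 CPM in IRE1fl and 526, 603 and 518 CPM in IRE1PKO, fully overlapping, with a log2 fold change of 0.02 (SE 0.10, adjusted p = 0.917) whose sign turned without IRE1fl 1 or IRE1PKO 2. Ppargc1a, its coactivator, had 7.51, 7.15 and 8.46 CPM in IRE1fl and 9.04, 12.1 and 9.80 CPM in IRE1PKO, higher in each IRE1PKO library, with a log2 fold change of 0.42 (SE 0.15, adjusted p = 0.114). Creb3l3, a membrane-bound liver transcription factor that acts with PPARalpha in fasting, had 422, 445 and 458 CPM in IRE1fl and 332, 388 and 333 CPM in IRE1PKO. It was lower in each IRE1PKO library, with a log2 fold change of -0.33 (SE 0.10, adjusted p = 0.0615) that passed with DESeq2. None of the 3 was called by edgeR in either direction. At an unadjusted p under 0.05 in that test, 1 was higher and 1 lower. At least 3696 of the 14954 tested genes passed that threshold, both directions together, so nothing is read from it. DESeq2 called 1 of the 3 lower, and limma-voom called none.

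PPARalpha binds as a partner of RXR to a direct repeat of AGGTCA spaced by 1 base, AGGTCANAGGTCA. Promoter windows (250 bases before to 50 after the start, RefSeq, GRCm38.p6) were found for 29 of the 36 genes, as 34 windows; Acaa2, Hsd17b4, Decr1, Abcd2, Crat, Vnn1 and Acat1 had no entry. The repeat was searched on both strands with up to 2 mismatches and was in 4 of the 34 windows (11.8%), against 3.86% of all 32851 windows and 3.29% of the 14295 windows of tested genes. None of the 4 matches belongs to a gene that passed the test, but of those genes Decr1, Abcd2 and Vnn1 had no window. With so few windows left and a background of 3.29%, a lack of matches there is likely in any case, and no conclusion is drawn from it. The 4 matches are shown on the strand of the gene, with the matched 13 bases in capitals.
Creb3l3, chr10:81092780-81092808, minus strand: ctgtaagtAGGGGAGAGGTCAcacagacc
Slc25a20, chr9:108662134-108662162, plus strand: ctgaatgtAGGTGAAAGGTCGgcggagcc
Echs1, chr7:140116484-140116512, minus strand: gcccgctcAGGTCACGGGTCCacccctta
Etfa, chr9:55512300-55512328, minus strand, repeat on the other strand: gcacacccTTACCTTTGCCCTactcccaa
The log2 fold changes of these 4 genes were -0.33, 0.18, 0.02 and -0.08. The stretches upstream of Pex11a, which rose, and of Acaa1b, whose call depended on the library left out, hold no such match. They are shown on the minus strand, 5′ to 3′ up to the start, with CCAAT and GGGCGG on either strand in capitals.
Pex11a, chr7:79743132-79743381: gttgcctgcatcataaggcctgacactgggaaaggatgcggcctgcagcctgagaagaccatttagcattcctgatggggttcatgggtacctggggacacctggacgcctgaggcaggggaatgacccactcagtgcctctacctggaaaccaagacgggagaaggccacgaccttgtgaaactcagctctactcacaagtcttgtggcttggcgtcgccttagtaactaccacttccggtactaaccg
Acaa1b, chr9:119157094-119157343: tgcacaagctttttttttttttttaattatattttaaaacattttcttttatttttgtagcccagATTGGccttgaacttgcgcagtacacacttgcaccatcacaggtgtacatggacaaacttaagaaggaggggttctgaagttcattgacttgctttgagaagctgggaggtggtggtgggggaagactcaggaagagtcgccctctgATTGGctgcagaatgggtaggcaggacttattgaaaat
The Pex11a stretch has neither CCAAT nor a GC box, and the Acaa1b stretch has CCAAT 2 times, both on the other strand. The full window of Pex11a, which also takes in the 50 bases after the start, not shown here, does hold a GC box and counts as such in the shares that follow. Over all windows CCAAT was in 37.4% and the GC box in 35.7%, against 41.2% and 67.6% of the 34 windows of these genes and 37.3% and 57.2% of the windows of tested genes.

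The rest of the pathway was read from 7 lists of other genes, 120 in all, of which 113 were tested. Of these 18 rose and 9 fell (25 and 6 with library totals as the only scaling), with a median of -0.01. In all 23.9% of the 113 were called, against 9.54% of all tested genes (5.68% higher and 3.86% lower). Of the 113, 8 rose and 5 fell without IRE1PKO 1, and 11 rose without IRE1PKO 2. The counts over all tested genes changed too in fits without 1 library, with their range in the last section. Among 14 other tested PPARalpha targets 7 rose and none fell by edgeR, with a median of 1.44. At an unadjusted p under 0.05 in that test, 10 were higher and 1 lower. At least 3696 of the 14954 tested genes passed that threshold, both directions together. DESeq2 called 10 of these targets higher and 0 lower, and limma-voom 9 and 0. Pdk4, which restrains pyruvate oxidation, rose by 2.70, the uncoupling protein gene Ucp2 by 0.98 and the droplet coat gene Plin2 by 0.88. Other peroxisomal oxidation genes were divided, with 2 of 19 that rose and 3 that fell. Amacr and Phyh, both of branched-chain oxidation, fell by 0.58 and 0.48, and the enoyl-CoA reductase gene Pecr by 0.49. Of 19 peroxins and peroxisome membrane genes none rose by edgeR, and Pxmp2, a membrane channel, fell by 0.70. At the background shares so few calls are likely in any list of this size, so no conclusion is drawn from the count. At an unadjusted p under 0.05, 2 were higher and 3 lower. DESeq2 called 0 higher and 3 lower, and limma-voom 0 and 1. Of the genes named in this paragraph, Pdk4, Ucp2, Plin2, Amacr, Pecr and Pxmp2 also passed without each library in turn. Phyh lost its call when IRE1PKO 1, IRE1PKO 2, IRE1fl 2 or IRE1fl 3 was dropped (adjusted p up to 0.142) and with library totals as the only scaling.

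Of 18 other mitochondrial oxidation and ketone genes 1 rose (5.56%, against 5.68% of all tested genes) and 2 fell. Those that fell were Ivd of leucine breakdown, by 0.70, and Bdh2, a cytosolic dehydrogenase, by 1.08. Of 11 genes of carnitine supply and malonyl-CoA control 3 rose and none fell by edgeR. At an unadjusted p under 0.05, which at least 3696 of the 14954 tested genes passed, 3 were higher and 1 lower. DESeq2 called 3 of the 11 higher and 0 lower, and limma-voom 2 and 0. Acacb, whose product makes the malonyl-CoA that restrains CPT1, rose from 108 ± 49.5 to 379 ± 19.7 CPM (SD, n = 3 each), by 1.81 (SE 0.34, adjusted p = 0.0326). Slc22a5, the carnitine importer, rose by 0.32 and Prkab2, a subunit of the kinase AMPK, by 0.97. Mlycd, which removes malonyl-CoA, had a log2 fold change of -0.16 (SE 0.09, adjusted p = 0.288). Of 14 genes of fatty acid activation and binding 4 rose and 1 fell. Acsl5, an acyl-CoA synthetase, rose by 0.78 and the fatty acid receptor Cd36 by 2.10, Acsm1, a medium-chain synthetase, fell by 0.48, and Acsl1 had -0.13 (SE 0.12, adjusted p = 0.532). Of 18 coregulators and related receptors 1 rose (5.56%, near the share over all tested genes) and 2 fell. Pparg, the adipocyte-enriched relative of PPARalpha, was higher by 1.85. The Mediator subunit gene Med1 was lower, with a log2 fold change of -0.34. Without each library in turn Ivd, Acsl5 and Pparg still passed. Slc22a5 was lost without any single library, and Prkab2 and Med1 without all but 1 of them (Prkab2 passed without IRE1fl 2, Med1 without IRE1fl 1). With all 6 libraries, Acacb was also lost with no filter on low counts, Med1 when library totals alone scaled the counts, and Slc22a5 with DESeq2 size factors, limma-voom or a dispersion trend that was not robust. Acacb was lost without IRE1fl 3 or any 1 IRE1PKO library, Cd36 without IRE1PKO 1 or IRE1PKO 3, Acsm1 without IRE1PKO 1 and Bdh2 without IRE1PKO 3, with adjusted p up to 0.168 among these genes.

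**Figure D4:**
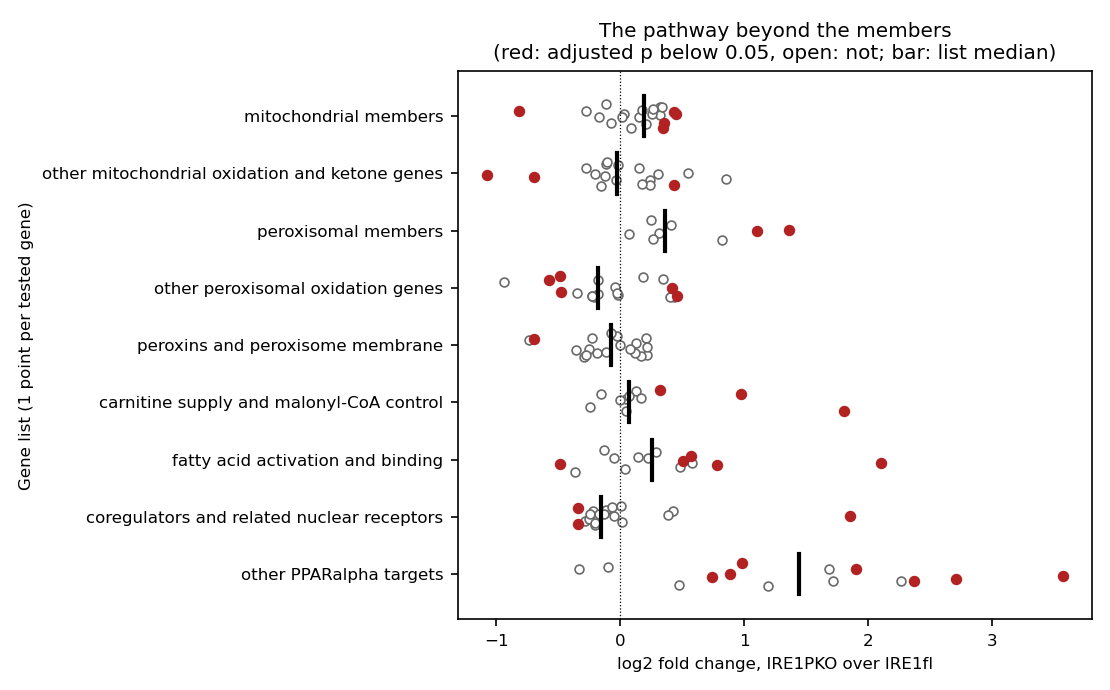
Log2 fold change (IRE1PKO over IRE1fl, x axis) of every tested gene in the mitochondrial and peroxisomal sets and in the 7 lists of other genes, with list medians as bars and genes past an adjusted p of 0.05 in red. The PPARalpha targets have a median of 1.44, the mitochondrial set 0.19 and the peroxisomal set 0.36, and the other peroxisomal oxidation genes lie on both sides of 0 with a median of -0.18.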

How the data were processed

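Polyadenylated liver RNA was sequenced in 6 libraries. The deposited table holds raw counts, 1 row per gene symbol and 1 column per library, on build mm10 (per the submitters' processing notes). Neither aligner, counter nor annotation is given in the sources used here, nor whether reads or fragments were counted. Columns were matched to samples by the genotype and number in their names.

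Counts passed filterByExpr, were scaled by TMM and went into edgeR 4.0.16 under R 4.3.3 (quasi-likelihood test with robust dispersions, two-sided, Benjamini-Hochberg adjustment over 14954 genes, threshold 0.05). CPM use the TMM-scaled totals, and an SE is the size of the log2 fold change over the root of the F statistic. Levels per kilobase use the principal GENCODE M21 transcript. An exact permutation test of 3 against 3 cannot go below p = 0.1. The steps were tested on simulated data. Replicates were not copies of each other (chi-square per gene 30.7 to 68.5). All 36 members are named, plus up to 3 called genes with the smallest p per other list, and genes with a rate-limiting textbook role, here Acsl1, Acacb and Mlycd, and Ern1. Some genes that this rule names are not reported here by name and remain in the counts of their lists. Members and lists were chosen with earlier results of these data known. Alternatives included DESeq2 1.42.0 and limma-voom (limma 3.58.1). The 27 date-like names in the table, with 0.178% of counts, stayed in the totals. Coordinates are RefSeq GRCm38.p6.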

Additional observations from a re-analysis of the deposited data

How the results depend on the processing

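No estimate turned sign under another scaling, filter, test or dispersion setting with all 6 libraries; without 1 library Ppara, Echs1 and Acadvl, none of them called, did. DESeq2 called 12 members higher and 2 lower, with 1126 and 841 among all genes. A threshold of 0.1 gave 11 and 2 (7 mitochondrial higher), with 1299 and 992 among all genes. No filter on low counts gave 2 members lower (723 among all genes). A dispersion trend that was not robust gave 2 mitochondrial members higher (835 among all genes). With each library left out in turn, 2 to 11 members rose and 1 fell. Of mitochondrial members 0 to 4 rose, of peroxisomal members 2 to 5, and of related genes 8 to 16 rose and 5 to 13 fell. Among all genes 398 to 868 rose and 255 to 616 fell. The medians were 0.21 to 0.31 over members, 0.16 to 0.24 over mitochondrial and 0.23 to 0.60 over peroxisomal members. Of the 8 called members, 3 (Acadsb, Pex11a and Abcd2) passed without each library in turn. Groups share replicate numbers. Deviations of same-numbered libraries had correlations of r = 0.07, -0.02 and 0.10 across genes, and those of differently numbered libraries r = -0.11 to 0.03. All are small, so the numbers are not read as pairs, but these values cannot exclude a pairing. With the replicate number as a block, 12 members rose and 2 fell, and Acacb, outside the members, lost its call. Among all genes 1051 rose and 814 fell with that block, against 849 and 577 without it. The least counted members, Ppargc1a and Slc27a1, had 252 to 447 and 429 to 667 counts per library. The cause of these shifts was not tested.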
